A study of Mus musculus with 4 samples.

Results

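The genes described here mark the cells that line the liver sinusoid: 16 genes of Kupffer cells and other macrophages, and 19 genes of endothelial cells. Of the endothelial genes, 7 are grouped here as sinusoidal uptake receptors and products. The others are grouped as angiogenic receptors and factors or as junction and adhesion genes. Every non-control probe annotated with a member gene was taken, older symbols included (Emr1 for Adgre1, Eltd1 for Adgrl4, Esam1 for Esam). This gave 54 probes for the 35 genes, 22 for the macrophage genes and 32 for the endothelial genes, of 41174 probes and 19713 named genes on the array. The rule of the list holds no measured value, but its members were chosen with earlier results of these data known. The series concerns an ostrich-derived Lactobacillus given to mice and its effects on weight, the gut microbiome and metabolism. Whole liver of 2 control mice and of 2 mice of the group labelled LB1, all female and of strain BALBc, was taken on day 20 after inoculation, with 1 array per liver. What LB1 stands for, and what control mice were given, is not in the labels, and the sample titles call the LB1 samples "stuff". No allele, transgene or dose is named for either group.

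Kupffer cells are the resident macrophages of the liver. They sit inside the sinusoids and clear microbes, immune complexes and dead cells from portal blood by means of complement, scavenger and lectin receptors. Liver sinusoidal endothelial cells form a fenestrated lining without a basement membrane and take up soluble waste and small immune complexes through stabilins, C-type lectins and an inhibitory Fc receptor, whereas genes such as Cdh5, Kdr and Tek are shared by endothelial cells in general. Since whole liver was measured, fewer cells of a type and less RNA per cell cannot be told apart.

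A probe of each of Vsig4, C1qa, Fcgr2b and Stab1 is shown first, since different stretches of a transcript did not always give the same answer. Each is a 60-base oligonucleotide read from the deposited scanner files, 5′ to 3′ in the sense of the transcript, with mm9 coordinates as the files give them. For Fcgr2b and Stab1 the probe shown is the most upstream tested one on the gene, all of them on the minus strand. It is not the brightest probe, on which the main values of these genes rest. The Stab1 probe spans 144 genomic bases, more than its own length.
Vsig4, chrX:93443157-93443216: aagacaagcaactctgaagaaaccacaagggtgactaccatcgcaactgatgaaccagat
C1qa, chr4:136452409-136452468: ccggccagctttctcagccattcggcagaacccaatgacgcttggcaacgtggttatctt
Fcgr2b, chr1:172895833-172895892: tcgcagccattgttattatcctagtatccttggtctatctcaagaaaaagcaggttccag
Stab1, chr14:31972691-31972834: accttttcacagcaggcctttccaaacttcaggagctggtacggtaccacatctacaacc

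LB1 arrays were dimmer as a whole. Processed signal had a 75th percentile of 410.9 and 414.7 in control and of 146.9 and 80.8 in LB1, and 24736 to 25861 spots were well above background on control arrays against 20311 to 22921 on LB1 arrays. All levels below are log2 processed signal relative to the array's own 75th percentile, and all differences are LB1 minus control on that scale. After this scaling the median difference over 13429 tested genes was 0.25, so a gene at 0 lies below the median gene. Quantile normalization gave 0.03 for this median, and the array median as reference gave -0.39. Replicates 1 of both groups shared a slide, as did replicates 2, so differences within slides 1 and 2 are also given. All 35 genes had a probe well above background on both control arrays and 32 of them on all 4 arrays. No member probe was saturated.

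Calls fell on both sides in both cell types. The Kupffer cell receptor Vsig4 fell by 1.59 and the complement chain C1qa fell by 0.79, whereas the haemoglobin scavenger receptor Cd163 rose by 1.23. Among the endothelial genes the inhibitory Fc receptor Fcgr2b fell by 1.07, and Tek and Adgrl4 fell on arrays where they were close to or under background, while Cdh5, Stab1 and Robo4 rose by 0.82 to 0.90. In all, 2 of 16 macrophage genes were called lower and 1 higher, and 3 of 19 endothelial genes lower and 3 higher, by limma at an adjusted p under 0.05 over all tested probes. Over all 13429 tested genes, 10.4% were called lower and 20.6% higher, so the members' shares lower are near the background. Both LB1 arrays lay below both control arrays for 17 of the 35 genes, against 29.2% of all genes, and above both for 12, against 48.2%. The groups overlapped for the other 6. Every member passed the filter on low signal, 3 of them (Adgrl4, Tek and Pecam1) only through the control arrays.

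The calls rest on small groups. Without control replicate 1, and likewise without control replicate 2, no member was called. These fits, with a single control array left, called very few probes on the whole array. The lack of calls is thus not particular to the members. The median difference was then -0.33 and -0.10 for the macrophage genes and -0.31 and -0.28 for the endothelial genes. Without LB1 replicate 1 there were 11 calls lower and 6 higher, where 17.8% and 27.8% of all genes were called. Without LB1 replicate 2 there were 3 and 2, where 7.77% and 16.0% were called. The scaling and background correction set the split of calls. Among the macrophage genes 8 were called lower and 1 higher with normexp background correction, 2 and 1 with quantile normalization, and 6 and 0 with the array median as reference. Among the endothelial genes these counts were 6 and 3, 5 and 1, and 7 and 0. The deposited series table, which has no background correction, gave 6 and 2 macrophage and 7 and 4 endothelial calls. Over all genes the shares lower and higher were 22.8% and 41.8% with normexp, 13.5% and 11.6% after quantile normalization, 26.4% and 6.54% when arrays were scaled by their median, and 17.2% and 42.1% with the series table. Vsig4, C1qa and Fcgr2b were called lower in the main setting and in all 3 of these.

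**Figure D1:**
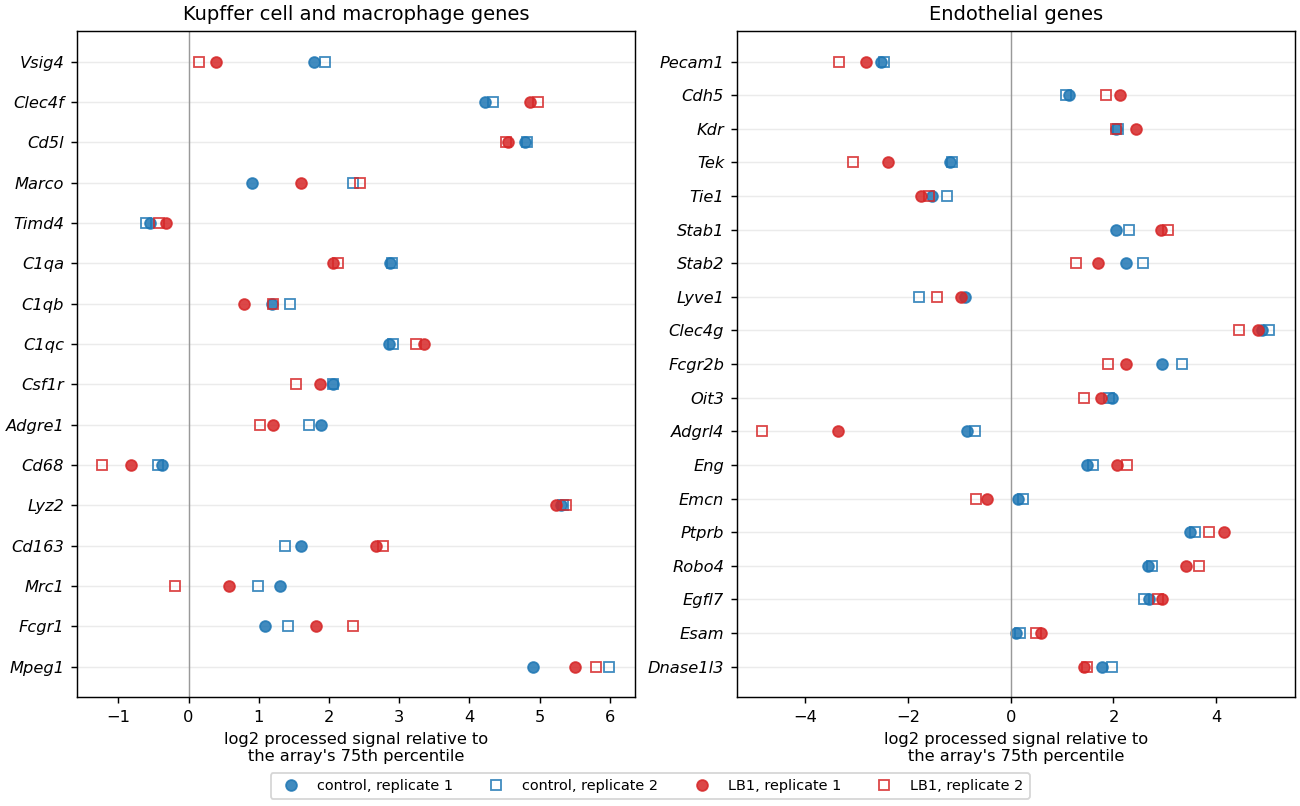
Level of each gene's brightest probe on the 4 arrays, as log2 processed signal relative to the array's 75th percentile; circles are replicate 1, squares replicate 2, blue control and red LB1. Positions should be compared within a row only: both LB1 points lie left of both control points for Vsig4, C1qa, Fcgr2b and Adgrl4, right of them for Cd163, and the control points of Marco and Mpeg1 lie 1.45 and 1.09 apart.

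Of the 4 genes grouped here under Kupffer cell identity, only Vsig4 was called. Vsig4, a complement receptor of resident macrophages that binds opsonised microbes, had levels of 1.78 and 1.94 on the control arrays and 0.39 and 0.15 on the LB1 arrays. The groups were far apart relative to the spread within each (SD 0.11 and 0.17, n = 2 each). The difference was -1.59 with an SE of 0.23, a 3.02-fold lower level (95% interval of the log2 difference -2.17 to -1.01, adjusted p = 0.0212). It was -1.39 on slide 1 and -1.79 on slide 2, and the adjusted p was 0.0847 without control replicate 1 and 0.136 without control replicate 2. Clec4f, a galactose-binding lectin found almost exclusively on Kupffer cells, stood at 4.22 and 4.34 in control and 4.86 and 4.98 in LB1. Its LB1 arrays both lay higher, but the difference of 0.64 was not called (adjusted p = 0.0721), and it was 0.09 with normexp. Cd5l, a secreted protein of tissue macrophages, was at 4.79 and 4.83 against 4.55 and 4.53, with a difference of -0.27 that was not called (adjusted p = 0.342). Timd4, the phosphatidylserine receptor of long-lived resident macrophages, was at -0.55 and -0.61 against -0.33 and -0.42, and its difference of 0.21 was likewise not called. Because Vsig4 and Clec4f were measured on the same arrays, a constant scaling of each array cancels in their ratio. It was -2.44 and -2.40 log2 units on the control arrays and -4.47 and -4.83 on the LB1 arrays. That change of -2.23 was -1.66 with normexp and -1.93 with quantile normalization. This pair and the other ratios below were chosen after the values were seen and are given without a test.

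The chains of complement C1q, the recognition protein of the classical pathway, which macrophages make from 3 adjoining genes on chromosome 4, had 1 called member, C1qa. C1qa had levels of 2.86 and 2.90 in control and 2.06 and 2.13 in LB1, with replicates close together (SD 0.02 and 0.05, n = 2 each). It fell by 0.79 (SE 0.21, 1.72-fold, adjusted p = 0.0439), by 0.80 on slide 1 and by 0.77 on slide 2, but was not called with the slide as a block (adjusted p = 0.0661). C1qb was at 1.19 and 1.44 against 0.79 and 1.21, so that the groups overlapped, with a difference of -0.32 that was not called (adjusted p = 0.365). C1qc was at 2.86 and 2.91 against 3.35 and 3.25, and its difference of 0.41 was not called (adjusted p = 0.18). With normexp the differences of all 3 chains were below 0, at -1.12, -0.54 and -0.087, and C1qa and C1qb were called lower. The ratio of C1qa to C1qc was 0.00 and -0.02 log2 units on the control arrays and -1.29 and -1.12 on the LB1 arrays. The change in that ratio was -1.19, and -1.03 with normexp. The ratio of C1qb to C1qc changed by -0.73, and by -0.46 with normexp. Each chain has 1 probe on this array, so a second stretch of these transcripts was not measured.

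Among the scavenger and lectin receptors, Cd163, which takes up haptoglobin-bound haemoglobin, was at 1.60 and 1.37 in control and 2.67 and 2.77 in LB1. The groups did not overlap, and the gene rose by 1.23 (SE 0.22, adjusted p = 0.0242), by 1.07 on slide 1 and 1.39 on slide 2. With the array median as reference the difference was 0.60 and was not called. Mrc1, the mannose receptor of macrophages and sinusoidal endothelium, was at 1.30 and 0.99 against 0.58 and -0.20. Both LB1 arrays lay lower, yet the difference of -0.95 was not called (adjusted p = 0.0826), and the LB1 arrays differed between them by 0.78. Marco, a scavenger receptor for bacteria, was at 0.90 and 2.35 in control and 1.60 and 2.44 in LB1. Its control replicates differed by 1.45, the widest control gap of all 35 genes, and the difference of 0.40 had an interval from -1.07 to 1.86. For comparison, the median gap over the members was 0.10 between control arrays and 0.28 between LB1 arrays.

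None of the 6 genes that macrophages share in general was called. Adgre1, an adhesion receptor that serves as the classic surface marker of mouse macrophages, was at 1.88 and 1.72 against 1.20 and 1.02. Its LB1 arrays both lay lower, with a difference of -0.69 and an adjusted p of 0.0661. With normexp this probe was called lower (-0.93, adjusted p = 0.00236). A dim upstream probe of Adgre1, in neither LB1 liver well above background, had a difference of -0.02 in the main setting. With normexp that upstream probe was called higher (1.49, adjusted p = 0.000847). Cd68, a lysosomal glycoprotein, had a difference of -0.61 (adjusted p = 0.108). Csf1r, the receptor for the macrophage growth factors, had a difference of -0.36 at its brightest probe (adjusted p = 0.274). Fcgr1, the activating high-affinity Fc receptor, was at 1.09 and 1.41 against 1.82 and 2.34. It lay higher on both LB1 arrays by a difference of 0.83 that was not called (adjusted p = 0.0766). Lyz2, lysozyme of macrophages and neutrophils, was at 5.31 and 5.33 against 5.23 and 5.37, a difference of -0.02 with an interval from -0.57 to 0.52. Its processed signal before scaling was 16326 and 16736 against 5506 and 3342, so the scaling between arrays enters every comparison here. Mpeg1, a pore-forming protein of phagocytes, was at 4.91 and 5.99 in control and 5.50 and 5.81 in LB1, both LB1 values lying between the controls.

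Of the 7 endothelial genes for uptake from blood and for secretion into it, 5 were lower in LB1 on both slides, against 32.1% of all genes, and Fcgr2b alone was called lower and Stab1 alone higher. This grouping, like the other roles, was made after values were seen. Fcgr2b, which on sinusoidal endothelium binds small immune complexes, was at 2.95 and 3.33 in control and 2.25 and 1.90 in LB1. The groups did not overlap, and the gene fell by 1.07 (SE 0.26, 2.10-fold, adjusted p = 0.0385), by 0.70 on slide 1 and by 1.44 on slide 2, but was not called with the slide as a block (adjusted p = 0.0551). This probe was spotted 10 times per array, with a coefficient of variation between 2.86% and 6.18% among spots, which is technical spread only. A middle and an upstream probe of Fcgr2b, the latter printed above, fell by 1.47 and 1.91 (adjusted p = 0.0287 and 0.0247). Relative to the activating receptor Fcgr1 on the same array, Fcgr2b changed by -1.90 log2 units, and by -1.84 with normexp.

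The stabilins Stab1 and Stab2 are large scavenger receptors of the sinusoidal lining. Stab2, the hyaluronan clearance receptor, was at 2.25 and 2.57 in control and 1.70 and 1.28 in LB1. Both LB1 arrays lay lower, and the difference of -0.92 missed the threshold (SE 0.27, adjusted p = 0.0525). It was called lower with normexp (-1.27, adjusted p = 0.00346), quantile normalization (-0.98, adjusted p = 0.0487) and the array median (-1.56, adjusted p = 0.00211). Stab1 was at 2.04 and 2.30 against 2.92 and 3.06 and rose by 0.82 (SE 0.23, adjusted p = 0.0482). It was not called with the slide as a block (adjusted p = 0.0616) or with normexp (0.33, adjusted p = 0.0565), and its upstream probe, printed above, was in neither LB1 liver well above background. That probe was at -3.54 and -3.51 in control and -4.33 and -4.97 in LB1, and was tested only because of the control arrays. It was called lower (adjusted p = 0.0415) with no fold, the LB1 value being only a bound, but was called higher with normexp (1.06, adjusted p = 0.000996) and with the series table (0.80, adjusted p = 0.00676). At the brightest probes the ratio of Stab2 to Stab1 was 0.21 and 0.27 log2 units on the control arrays and -1.22 and -1.78 on the LB1 arrays. The change of -1.74 was -1.60 with normexp.

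Clec4g, a lectin of liver and lymph node sinusoidal endothelium, was at 4.90 and 5.03 against 4.80 and 4.44, with a difference of -0.34 that was not called (adjusted p = 0.301). Dnase1l3, a secreted nuclease that clears chromatin in blood, had a difference of -0.42, and Oit3, a secreted protein of sinusoidal endothelium, one of -0.34 at its brightest probe; neither was called (adjusted p = 0.184 and 0.291). Lyve1, the hyaluronan receptor of sinusoidal and lymphatic endothelium, was at -0.88 and -1.79 against -0.96 and -1.44, the LB1 values lying between those of the controls. With normexp, 5 of these 7 uptake genes were called lower and 0 higher. With quantile normalization these counts were 2 and 0, against 1 and 1 in the main setting. Of all genes, 22.8% were called lower and 41.8% higher with normexp. These shares were 13.5% and 11.6% with quantile normalization, and 10.4% and 20.6% in the main setting.

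The endothelial growth factor receptors and related proteins ranged from a fall in Adgrl4 to a rise in Robo4. Adgrl4, an adhesion receptor of angiogenic endothelium, was at -0.85 and -0.70 in control and was in neither LB1 liver well above background, with values of -3.35 and -4.84. Adgrl4 was tested only because of the control arrays. In the main setting it was called lower in LB1 (adjusted p = 0.0219). No fold is given, since LB1 signals not well above background do not give a reliable size. With normexp the difference of Adgrl4 was -0.21 and was not called (adjusted p = 0.151). With the series table it was -0.80 (adjusted p = 0.0051). Tek, the angiopoietin receptor, was at -1.18 and -1.15 against -2.39 and -3.06, and 1 of the LB1 arrays was not well above background. It fell by 1.57 (SE 0.30, adjusted p = 0.0251), but with normexp the difference was 0.03 (adjusted p = 0.81). Tie1, the related orphan receptor, had a difference of -0.28 that was not called and that was 0.34 with normexp, where it was called higher (adjusted p = 0.0467). For Adgrl4, Tek and Tie1 the size or the direction thus changed with the background correction.

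The other genes of the group were brighter. Robo4, a guidance receptor of endothelium, was at 2.68 and 2.75 against 3.41 and 3.66 and rose by 0.82 (SE 0.22, adjusted p = 0.046). It was not called with the slide as a block (adjusted p = 0.0622), normexp (0.30) or quantile normalization (0.66). Eng, a co-receptor for ligands of the TGF-beta family, was at 1.49 and 1.59 against 2.07 and 2.26, with a difference of 0.62 that was not called (adjusted p = 0.0818). Ptprb, the endothelial receptor phosphatase that acts on Tek and Cdh5, and Egfl7, a secreted vessel protein, had differences of 0.45 and 0.26 that were not called. Kdr, the main receptor for VEGF-A, was at 2.05 and 2.09 against 2.43 and 2.04, so that the groups overlapped, with a difference of 0.17 (interval -0.45 to 0.79). Its 10 spots per array had coefficients of variation from 4.25% to 6.01%.

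At endothelial junctions, Cdh5, the vascular cadherin, was at 1.13 and 1.07 in control and 2.14 and 1.86 in LB1. It rose by 0.90 (SE 0.23, adjusted p = 0.0393), by 1.01 on slide 1 and 0.79 on slide 2, and was also called with normexp (0.46, adjusted p = 0.0286) but not with the slide as a block (adjusted p = 0.0532). Its upstream probe had a difference of -0.36 with overlapping groups and was not called. Emcn, a sialomucin of venous and sinusoidal endothelium, was at 0.14 and 0.23 against -0.45 and -0.67, and its difference of -0.74 missed the threshold (adjusted p = 0.0554). Esam, an adhesion molecule of endothelial junctions, had a difference of 0.39 that was not called. Pecam1, the general endothelial adhesion molecule, was dim: on LB1 replicate 2 only 3 of its 10 spots were well above background, and their signal varied by 26.4%. Its difference was -0.58 and not called in the main setting, and 0.77 and called with normexp (adjusted p = 0.00235).

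**Figure D2:**
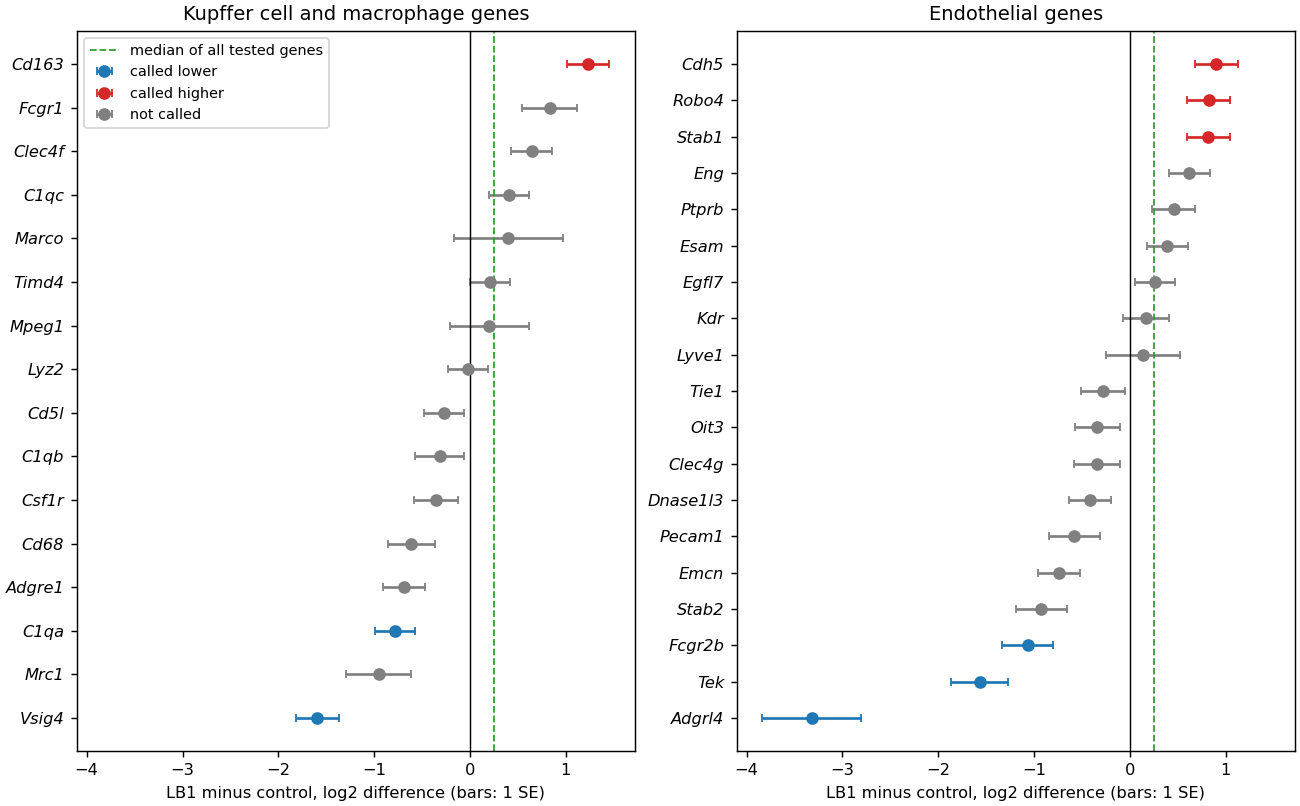
LB1 minus control log2 difference of each gene's brightest probe (points) with 1 SE from limma (bars), blue where called lower, red where called higher and grey where not called; the dashed green line marks the median of all tested genes, 0.25. Calls lie on both sides of 0 in each panel; the point of Adgrl4 rests on LB1 signals near background and shows a direction, not a size.

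With the slide as a block, which takes up 1 of the degrees of freedom, the 5 genes C1qa, Fcgr2b, Cdh5, Stab1 and Robo4 were no longer called, while Vsig4, Cd163, Tek and Adgrl4 were (adjusted p = 0.0308, 0.0345, 0.0321 and 0.0308). Of all genes this fit called 9.03% lower and 19.5% higher, against 3 members lower and 1 higher. The study's own rule, the methods' t-test at an unadjusted 0.05 with a minimum of 2-fold, marked 3 members lower and 1 higher, against 6.28% of all genes lower and 10.8% higher.

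Probes of the same gene often differed. For 10 members with at least 2 tested probes, the most upstream and the most downstream tested probe were compared within each array. The difference was lower at the upstream probe in 7 of 10 genes, with a median of -0.77 between the probes. Over all 4893 such pairs on the array the upstream probe was lower in 53.8%, with a median of -0.12. The upstream probe was the dimmer in all 10 member pairs; over the whole array, pairs with a dimmer upstream probe were lower upstream in 60.3%, and pairs with a brighter one in 37.5%. Over probes well above background on all 4 arrays, 4 of 6 member pairs and 54.2% of all pairs were lower upstream. With normexp over the same probes, these were 1 of 6 and 44.8%. Probe brightness and background correction move with this pattern, and their part in it was not tested.

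Single genes show the range. Lyz2 had a difference of -0.02 at its bright probe and -1.22 at the upstream one (-0.81 and -0.89 in control, -2.63 and -1.51 in LB1), which was not called. The upstream Oit3 probe, in neither LB1 liver well above background, passed the filter through the control livers alone. In the main setting it was called lower (adjusted p = 0.0216), with no fold given, whereas the bright probe, at -0.34, was not called. With normexp that upstream probe was called higher (0.33, adjusted p = 0.0408), and with the series table its difference was -0.041 (adjusted p = 0.866). The 3 tested Csf1r probes gave -0.36, -0.98 and 1.30, of which only the middle one was called, lower (adjusted p = 0.0316). The upstream Mpeg1 probe was at -1.98 and -1.12 in control and -0.65 and 0.10 in LB1, a difference of 1.28 that was not called (adjusted p = 0.0687). Of the 54 member probes, 47 were tested, 10 were called lower and 4 higher, where 13.2% of all tested probes were called lower and 19.2% higher. The 7 untested probes belong to endothelial genes that each have a brighter tested probe.

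**Figure D3:**
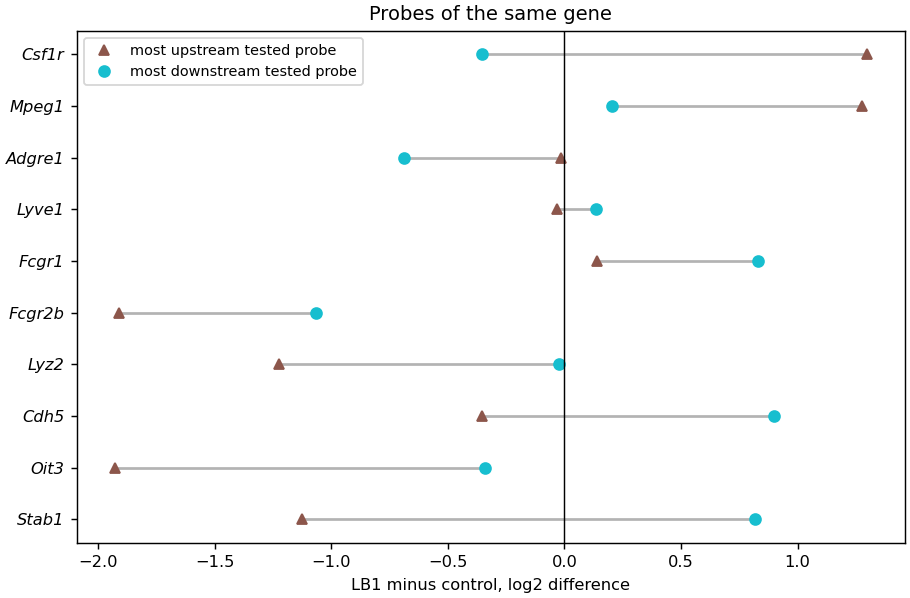
LB1 minus control log2 difference at the most upstream (triangles) and the most downstream (circles) tested probe of the 10 members with several tested probes. Stab1, Cdh5, Csf1r and Lyve1 have their 2 probes on opposite sides of 0; for Fcgr2b both lie below it. Of the triangles below 0, those of Stab1, Oit3, Adgre1, Lyve1 and Cdh5 lie above 0 with normexp, and those of Fcgr2b and Lyz2 stay below it.

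Compared as groups, the macrophage and the endothelial genes changed their order with the setting. The median difference was -0.15 for the macrophage genes and -0.28 for the endothelial genes, which is -0.39 and -0.53 relative to the median of all genes. The endothelial median turned to 0.15 with the filter on all 4 arrays, which leaves out Adgrl4, Tek and Pecam1. Within slides 1 and 2 the macrophage median lay at -0.41 and -0.43 relative to all genes, and the endothelial median at -0.37 and -0.56. Both medians were below that of all genes in 15 of 15 settings, between -0.84 and -0.26 relative to it for the macrophage genes and between -0.98 and -0.13 for the endothelial genes. These settings are not all separate checks. The array median, the replicate block and the trend and robust variance cannot change these relative values. Using no filter, or leaving out saturated probes, did not change the members' own medians. The macrophage median minus the endothelial one was 0.14, and the same in the settings just named. It was below 0 in 4 of 15 settings and -0.40 with normexp.

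**Figure D4:**
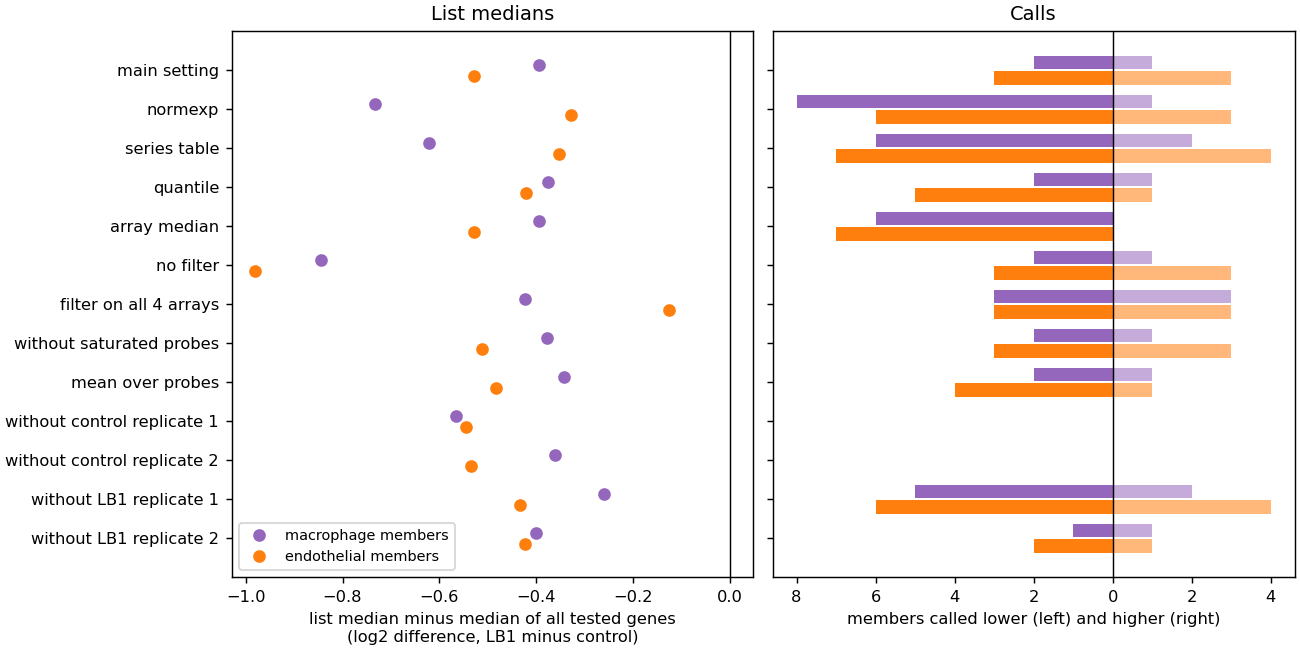
Left, median difference of the macrophage (purple) and endothelial (orange) genes minus that of all tested genes, in log2 units, in 13 of the 15 settings (the replicate block and the trend and robust setting leave the medians unchanged); right, number of genes called lower (leftward) and higher (rightward, paler). All medians lie below 0, while their order and the number of calls vary with the setting. Both counts are 0 when either control array is left out, where very few probes on the whole array were called.

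Other genes of the same cells were also mixed. Their counts are to be read against 10.4% lower and 20.6% higher over all genes, and their medians against 0.25. Of 30 further macrophage genes, 5 were called lower and 3 higher, with a median of -0.08. Hpgd, which inactivates prostaglandins, fell by 1.77, Mertk, the receptor for apoptotic cells, fell by 1.45, and Sirpa, which binds Cd47, rose by 1.26 (adjusted p = 0.0211, 0.0223 and 0.0245). Cd48, an adhesion molecule of leukocytes, was called lower with no LB1 array well above background. Of 32 tested further endothelial genes, 4 were called lower and 5 higher, with a median of -0.16. F8, coagulation factor VIII, which sinusoidal endothelium makes, fell by 2.11 (adjusted p = 0.022), and Vegfb rose by 1.63 (adjusted p = 0.0309). Bmp6, the endothelial signal for hepcidin, and the surface protein Clec14a were also called lower, with 1 LB1 array each not well above background. Of 11 tested genes of larger vessels and capillaries, 2 were called lower (Ackr1 and Ly6a) and 2 higher (Cd34 and Cd9).

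Markers of other liver cells are given beside these, to be read against 10.4% lower and 20.6% higher over all genes. Of the blood monocyte and neutrophil markers 0 of 10 tested were called lower and 1 higher (Mpo), and the log2 of their summed level was 5.03 and 5.32 in control against 5.83 and 5.68 in LB1. Of the lymphocyte markers 0 of 15 were called lower and 6 higher, Cd79a, Ccl5 and Cd4 among them. The summed level was 2.02 and 2.09 against 2.90 and 2.98. On the LB1 arrays 4 and 7 of these 15 were not well above background, against 0 and 0 on the control arrays. Cd79a and Cd4 had 1 LB1 array each not well above background. Calls lower and higher among the 15 were 2 and 3 with quantile normalization (all genes 13.5% and 11.6%). They were 3 and 1 with the array median (26.4% and 6.54%), and 0 and 15 with normexp (22.8% and 41.8%). For stellate cells and fibroblasts 0 of 18 were called lower and 6 higher, including Pdgfrb, Tagln, Ecm1 and Col1a1 (7.31 and 7.20 against 7.86 and 8.03). For bile duct cells the counts were 1 and 3 of 6, with Spp1 lower and Krt7 and Krt19 among those higher (1.98 and 2.10 against 2.22 and 3.52). For hepatocytes they were 1 and 5 of 13, but 10 of these 13 were saturated on some array. Alb and Fgb were saturated on all 4, so their scaled differences measure no change in level. Of 13 tested mesothelial markers, genes of the liver's outer surface, 11 were called higher, including Gpc3, Muc16, Nkain4 and Lrrn4, with a median difference of 4.26. These named genes passed the filter only through the LB1 arrays, where they were high, so their differences rest on control values near background. The median difference of the list was 2.14 on slide 1 and 6.47 on slide 2, and 2.23 with normexp. Krt19 is counted both here and among the bile duct markers. The summed level of the 13 was 7.41 and 7.64 against 8.46 and 8.88. Their median level was -3.05 and -5.16 against -0.10 and 1.60, so the sum rests on the brighter genes of the list. On control replicate 2, 7 of the 13 were not well above background, against 1 on control replicate 1. The same scaled sum over the 16 macrophage genes was 7.28 and 7.61 against 7.45 and 7.60, and over the 19 endothelial genes 6.51 and 6.64 against 6.69 and 6.52. The part of these other cells in the members' differences was not tested. The housekeeping gene Gapdh had a difference of -0.04 (adjusted p = 0.919).

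Promoter sequence was available for 25 of the 35 genes from RefSeq, assembly GRCm38.p6, as windows of 300 bases from 250 before to 50 after the start. Macrophage genes are classically controlled by PU.1 and endothelial genes by other ETS factors, whose core sites resemble GAGGAA and CAGGAA respectively; these letters were searched on both strands, and as both end in AGGAA a position can match only 1 of them. GAGGAA was in 8 of 13 macrophage windows and 7 of 14 endothelial windows, against 28.3% of all 32851 windows. CAGGAA was in 6 of 13 and 10 of 14, against 30.6%. The pairs Vsig4 and Clec4f, and Stab2 and Stab1, are shown because their members moved apart within the same arrays; matches are in capitals, as TTCCTC or TTCCTG where they lie on the other strand. All 4 windows are on the minus strand and are written in the direction of transcription.
Vsig4, chrX:96293389-96293688: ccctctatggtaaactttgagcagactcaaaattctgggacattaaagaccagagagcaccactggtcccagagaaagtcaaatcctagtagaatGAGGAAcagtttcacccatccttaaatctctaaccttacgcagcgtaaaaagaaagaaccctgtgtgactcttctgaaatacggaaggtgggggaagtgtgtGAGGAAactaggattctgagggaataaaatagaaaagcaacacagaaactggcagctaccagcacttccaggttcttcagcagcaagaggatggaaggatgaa
Clec4f, chr6:83656067-83656366: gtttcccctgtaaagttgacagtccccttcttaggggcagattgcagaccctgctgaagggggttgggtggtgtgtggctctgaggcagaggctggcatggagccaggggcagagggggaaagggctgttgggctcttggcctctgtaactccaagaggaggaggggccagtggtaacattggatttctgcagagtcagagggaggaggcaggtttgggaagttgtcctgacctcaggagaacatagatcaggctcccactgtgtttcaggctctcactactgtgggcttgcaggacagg
Stab2, chr10:87007893-87008192: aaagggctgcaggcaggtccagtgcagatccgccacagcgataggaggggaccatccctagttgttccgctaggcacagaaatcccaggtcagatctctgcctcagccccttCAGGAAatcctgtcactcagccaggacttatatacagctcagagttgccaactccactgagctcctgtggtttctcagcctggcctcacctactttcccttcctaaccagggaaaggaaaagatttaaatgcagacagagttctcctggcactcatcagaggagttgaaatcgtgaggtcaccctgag
Stab1, chr14:31168592-31168891: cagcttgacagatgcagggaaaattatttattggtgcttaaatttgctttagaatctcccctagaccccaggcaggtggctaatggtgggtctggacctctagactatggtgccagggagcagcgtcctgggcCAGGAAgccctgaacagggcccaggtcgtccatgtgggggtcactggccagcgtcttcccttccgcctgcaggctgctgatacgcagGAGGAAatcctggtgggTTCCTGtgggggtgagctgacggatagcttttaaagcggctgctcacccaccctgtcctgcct
The Vsig4 window held GAGGAA at 2 positions and the Clec4f window held neither motif. The Stab2 window held CAGGAA at 1 position, and the Stab1 window held CAGGAA at 2 positions and GAGGAA at 1. These are matches of letters only.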

How the data were processed

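Liver RNA of 2 control and 2 LB1 mice was labelled with Cy3 and hybridised to whole-genome oligonucleotide arrays of Agilent, per the labels. The deposited scanner files hold spot intensity on a linear scale, background-subtracted and detrended within each array by Feature Extraction 10.5.1.1 on scanner G2505C, per the file headers; the design text names other versions. The deposited series table holds the mean intensity rounded to whole numbers, with 100% of its values within 0.5 of the scanner's mean signal, so its scale is linear, without centring between arrays.

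Control and outlier spots were left out. Log2 processed signal was scaled by subtracting the array's 75th percentile, taken over 43379 non-control spots, and averaged over the spots of a probe. A probe was tested if at least 1 group had it well above background on both of its arrays (22955 probes; 12 more had a missing array). The groups were compared by limma 3.58.1 in R 4.3.3 (lmFit, then eBayes, two-sided). P-values were adjusted with the Benjamini-Hochberg method across the tested probes, and calls need an adjusted p under 0.05. A gene is its brightest probe over the 4 arrays. All members are named, and of each other list up to 4 called genes with the smallest adjusted p, a few of which are not reported here. Members and lists were chosen with earlier results of these data known; roles and ratio pairs were set after values were seen. The fit was tested on simulated data. The labels name every sample as its own mouse, and only 2 arrays per group limit the precision. Deviations of same-numbered arrays from their group means correlated at 0.151; replicate number and slide coincide, and the labels do not pair the mice. Alternatives were normexp (offset 50), quantile normalization, the array median, other filters, trend and robust variance, the series table, the slide as a block, the methods' t-test, the mean over a gene's probes, and each array left out.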

Additional observations from a re-analysis of the deposited data

How the results depend on the processing

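With 2 arrays per group every call is limited by the spread of a pair of arrays, and the dimmer LB1 arrays leave dim probes near background. With an array left out the lone array of its group is assumed to vary like the other group. Calls lower then ranged from 0 to 5 for the macrophage genes, from 0 to 6 for the endothelial genes and from 1 to 5014 for all probes, and calls higher from 0 to 2, from 0 to 4 and from 0 to 6009 (main setting 3028 lower and 4408 higher probes). The list medians ranged from -0.33 to -0.03 and from -0.31 to -0.16. In the fit with the replicate block 1 macrophage gene was called lower and 2 endothelial genes lower and 0 higher; 3 and 4 endothelial genes had an unadjusted p under 0.05 higher by limma with and without the block.

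Over all probes, normexp called 4640 lower and 11341 higher, quantile normalization 2451 higher, the array median 7116 lower and 1650 higher, the deposited series values 10683 higher, and no filter 17541 higher. The stricter filter, on all 4 arrays, called 2954 lower and 5230 higher of 18144 probes. Trend and robust variance called 3474 lower and 5092 higher of 22955 probes. The methods' t-test marked 1881 lower and 2228 higher at its own threshold, and 0 after Benjamini-Hochberg adjustment in either direction and among the members too; at its own threshold it marked 1 macrophage gene lower and 0 endothelial genes higher. Macrophage calls lower were 8 with normexp and 6 with the array median or the series table, and calls higher 0 with the array median, 2 with the series table and 3 with the stricter filter or the trend and robust variance. Endothelial calls lower were 6 with normexp, 5 with quantile normalization or trend and robust variance, and 7 with the array median or the series table; calls higher were 1 with quantile normalization or the mean over probes, and 0 with the array median.

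The macrophage median was -0.47 with normexp and -0.78 with the array median. The endothelial median was -0.065, -0.92 and -0.026 with normexp, the array median and the series table. It turned to 0.15 with the filter on all 4 arrays, which leaves out Adgrl4, Tek and Pecam1.

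Differences that changed sign were, with normexp, C1qc (-0.087), Mpeg1 (-0.39), Pecam1 (0.77), Kdr (-0.26), Tek (0.030), Tie1 (0.34), Ptprb (-0.065) and Egfl7 (-0.23). With the array median they were Marco (-0.24), Timd4 (-0.43), C1qc (-0.23), Mpeg1 (-0.43), Kdr (-0.47), Lyve1 (-0.50), Eng (-0.014), Ptprb (-0.18), Egfl7 (-0.37) and Esam (-0.24), where the median of all genes itself was -0.39. With the series table they were Mpeg1 (-0.14), Pecam1 (0.51), Kdr (-0.077), Tie1 (0.18) and Egfl7 (-0.026), with quantile normalization Mpeg1 (-0.15), and with the mean over probes Stab1 (-0.15). With an array left out Marco ranged from -0.33 to 1.12, Mpeg1 from -0.34 to 0.75, Lyve1 from -0.32 to 0.59, Kdr from -0.024 to 0.36 and Lyz2 from -0.10 to 0.047. The cause of these changes was not tested.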
